A study of Mus musculus with 2 samples.

Results

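Gas6, Pros1 and the receptor tyrosine kinases Tyro3, Axl and Mertk, together called the TAM system after the initials of the receptors, were followed in fetal mouse liver with and without a conditional deletion of Prox1. The members were all probe sets that the platform annotation assigned to 1 of these 5 genes and to no other gene. There were 8 such probe sets out of 34945 with a single gene, and the 5 genes stood among 18193 with a probe set of their own. The genes were selected by family with the large Gas6 difference between these arrays already known, so their values are given as a description. Both samples were livers of mouse embryos at E14.5 with the strain label NMRI/C57Bl6. The first was wild type, and the second carried the genotype Prox1 f/f;Foxa3Cre, a floxed Prox1 gene recombined by a Cre that is expressed under Foxa3, a gene of gut and liver endoderm. Blood-forming, vascular and mesenchymal cells of the organ do not arise from that endoderm. The number of embryos behind each RNA and the deleted part of Prox1 are not in the labels. With 1 array for each genotype there was no spread between samples, no test and no p-value, and every difference below is between these 2 samples.

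TAM receptors sit on the surface of macrophages, endothelium, mesenchymal cells and some epithelia. Their ligands, Gas6 and protein S (encoded by Pros1), are secreted proteins whose amino-terminal Gla domain, made by vitamin K-dependent carboxylation, binds phosphatidylserine on dying cells, platelets and vesicles, while their carboxy-terminal laminin G-like domains engage the receptor. Gas6 is a ligand of all TAM receptors and has its highest affinity for Axl, whereas protein S acts on Tyro3 and Mertk. The signal promotes uptake of dying cells and restrains inflammation, and in liver it is known from Kupffer cells, which express Mertk, and from stellate cells, which express Axl. Protein S is also a plasma anticoagulant, made by hepatocytes and endothelium, that serves activated protein C and tissue factor pathway inhibitor as a cofactor.

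Of the 5 genes, Gas6 was the only one at least 2-fold apart between the livers. Pros1, Axl and Mertk were measured on both arrays and were higher in the knockout by less than 2-fold. Tyro3 lay on the floor on both arrays. The floor was a MAS5 signal of 112.6, the higher of the arrays' median signals, and a gene was counted as measured where its brightest probe set lay above it. In all, 4 of 5 genes were measured. Of these 4, 1 passed 2-fold upwards, 0 passed it downwards, and all 4 were above 0. Among 11397 measured genes of the array, 3.27% passed 2-fold upwards, 2.13% passed it downwards and 53.8% were above 0. The median log2 difference, knockout minus wild type, was 0.49 for the 4 measured genes and 0.03 for all measured genes.

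**Figure D1:**
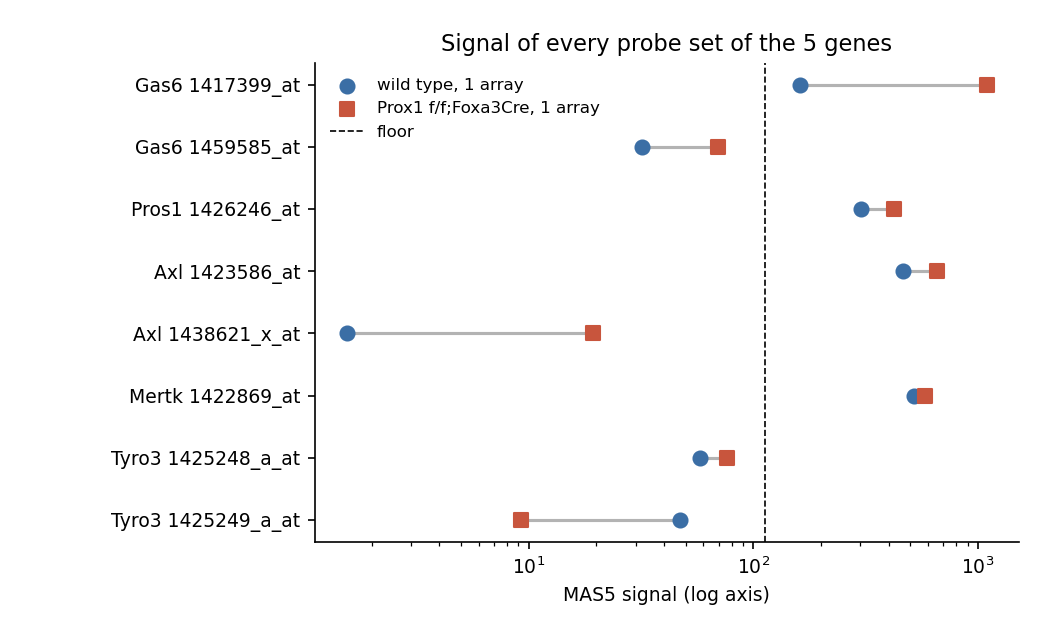
MAS5 signal, on a log axis, of the 8 probe sets of the 5 genes, with a circle for the single wild-type array, a square for the single Prox1 f/f;Foxa3Cre array and a dashed line at the floor of 112.6. The brightest Gas6 probe set moves from 161.2 to 1092, the Pros1, Axl and Mertk probe sets above the floor lie close together on the arrays, and both Tyro3 probe sets stay below the floor.

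Gas6, the ligand shared by all TAM receptors, read 161.2 in the wild-type liver and 1092 in the knockout liver on probe set 1417399_at. In wild type this was not far above the floor. The knockout signal was 6.77-fold higher, a log2 difference of 2.76. Among 10221 genes measured on both arrays, this was the third highest difference, with Gas6 at rank 3. The rank leaves out genes on the floor in wild type, some of which rose more. Examples are Krt19, with a log2 difference of at least 3.12, and Eif2s3y, with at least 4.13. Eif2s3y is Y-linked, and the arrays also differ in sex-linked genes, as given below. Of 2195 genes whose mean log2 signal lay within 0.5 of that of Gas6, 2 had a difference as high or higher, Gas6 among them, and the middle 95% ran from -1.11 to 1.16. The other Gas6 probe set, 1459585_at, had signals of 32.1 (wild type) and 69.9 (knockout). Both of these values lie below the floor, so this probe set gives no fold, and the size of the Gas6 difference rests on a single probe set. Taken as the median over both probe sets, with the dim one at the floor, the log2 difference was 1.38, or 2.60-fold.

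Pros1, which encodes protein S, read 302.5 in the wild-type liver and 422.5 in the knockout liver on its single probe set, 1426246_at. The knockout signal was 1.40-fold higher, a log2 difference of 0.48. That is well inside the range of genes of like signal. Of 2104 genes within 0.5 of its mean log2 signal, 391 (18.6%) had a difference as high or higher. Their median was 0.09, and the middle 95% ran from -1.05 to 1.25. The log2 difference of Gas6 exceeded that of Pros1 by 2.28, so the ligands differed unequally between the livers.

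To show what lies upstream of the ligand genes, the 250 bases before the annotated start of Gas6, on the minus strand at chr8:13494536-13494785, and of Pros1, on the plus strand at chr16:62854057-62854306, are given with those of Axl, on the minus strand at chr7:25788734-25788983. The sequences are from RefSeq on GRCm38.p6 and run 5′ to 3′ along the gene's strand. Capitals mark GGGCGG, the GC box bound by Sp1-type factors, and GGAATG, the core of TEAD sites, each on either strand.
Gas6: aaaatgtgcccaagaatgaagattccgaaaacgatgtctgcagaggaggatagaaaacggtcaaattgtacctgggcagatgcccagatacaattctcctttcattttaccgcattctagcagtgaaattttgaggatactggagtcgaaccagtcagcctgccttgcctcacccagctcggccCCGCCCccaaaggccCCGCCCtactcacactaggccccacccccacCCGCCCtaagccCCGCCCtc
Pros1: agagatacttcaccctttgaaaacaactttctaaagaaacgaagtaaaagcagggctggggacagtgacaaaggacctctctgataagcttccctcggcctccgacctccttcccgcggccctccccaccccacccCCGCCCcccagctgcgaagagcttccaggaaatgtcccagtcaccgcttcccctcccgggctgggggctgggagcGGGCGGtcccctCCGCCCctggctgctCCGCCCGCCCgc
Axl: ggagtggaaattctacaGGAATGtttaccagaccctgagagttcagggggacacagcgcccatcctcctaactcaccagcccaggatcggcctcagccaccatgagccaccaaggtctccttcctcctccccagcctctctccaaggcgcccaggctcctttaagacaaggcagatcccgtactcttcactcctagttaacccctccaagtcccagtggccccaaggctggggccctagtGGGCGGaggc
The Gas6 sequence holds 4 GC boxes, all within its last 66 bases, and the Pros1 sequence holds 5, of which the last 2 overlap. The Axl sequence holds 1 GC box and 1 GGAATG. The corresponding sequences of Mertk and Tyro3 hold 3 GC boxes each and no GGAATG. Of 32851 promoter sequences of the same length, from which 1 chromosome was left out, 32.7% hold a GC box and 12.6% hold GGAATG. The AP-1 motif TGANTCA, the CCAAT box (CCAAT) and the TATA box (TATAAA), also searched on both strands, were not found in these windows of the 5 genes. They occur in 6.7%, 33.8% and 12.4% of the 32851 promoter sequences. The number of CpG dinucleotides in the 250 bases was 10 for Gas6, 15 for Pros1, 5 for Axl, 7 for Mertk and 24 for Tyro3, against a median of 6 over the 32851 promoters. The Tyro3 promoter was the richest in CpG of the 5. These matches describe letters in the reference and were not tested for binding.

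Axl, the receptor with the highest affinity for Gas6, read 462.2 in the wild-type liver and 656.4 in the knockout liver on probe set 1423586_at. The knockout signal was 1.42-fold higher, a log2 difference of 0.51. Of 2305 genes within 0.5 of its mean log2 signal, 283 (12.3%) had a difference as high or higher, and the middle 95% ran from -1.01 to 1.03. The other Axl probe set, 1438621_x_at, read 1.55 and 19.3, far below the floor on both arrays, and its suffix marks probes that may also match other transcripts. It gives no fold. The size for Axl therefore also comes from 1 probe set.

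Mertk, the receptor through which macrophages clear dying cells, read 519.7 in the wild-type liver and 583.0 in the knockout liver on its single probe set, 1422869_at. The knockout signal was 1.12-fold higher, a log2 difference of 0.17. This was the smallest difference of the measured genes, and 782 of 2304 genes of like signal (33.9%) had one as high or higher. The log2 difference of Axl exceeded that of Mertk by 0.34. Among genes of their signal, the log2 difference of a single gene had a robust SD of 0.34. A gap between genes spreads more widely than that, and its spread was not worked out here.

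Tyro3, the TAM receptor best known from the nervous system, read 57.9 and 76.0 on probe set 1425248_a_at and 47.1 and 9.27 on probe set 1425249_a_at, wild type first. All values are below the floor, and the probe sets point in opposite directions. Tyro3 was therefore not measurable at this signal in either liver, which does not show that it is absent.

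**Figure D2:**
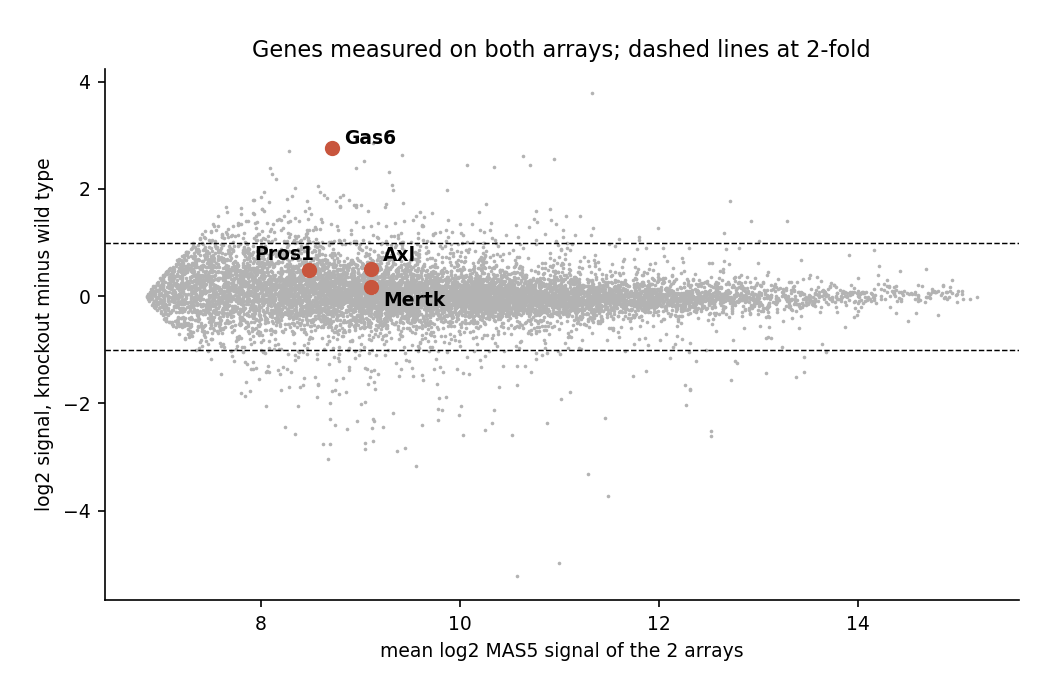
Log2 difference (knockout minus wild type) against mean log2 MAS5 signal of the arrays for the 10221 genes measured on both, with grey points for all genes, filled circles for Gas6, Pros1, Axl and Mertk, and dashed lines at 2-fold. Gas6 lies at 2.76, near the upper edge of the cloud, and Pros1, Axl and Mertk lie inside it at 0.48, 0.51 and 0.17.

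Genes were also ranked by how close their log2 difference came to that of a member, over the 2 arrays and among genes measured on both. For Gas6 the closest were Tmprss2, a protease of epithelial membranes, with a log2 difference of 2.71, the small GTPase Rnd2 with 2.85, Ermp1 with 2.64, the lactate dehydrogenase chain Ldhb with 2.61 and the alcohol dehydrogenase Adh1 with 2.57. No gene came within 0.05 of Gas6 on the log2 scale (0 genes). A total of 370 genes lay that close to Pros1, 351 to Axl and 1063 to Mertk. Most genes lie near 0, so these counts restate the size of each difference and are not a further property of Gas6. The closest were Gdpd5, Ankrd24 and Wdr6 for Pros1, Zfp606, Tmem144 and Pcbp4 for Axl, and Dyrk3, Agfg1 and Ap1b1 for Mertk, each with the log2 difference of its member to 2 decimals. With 1 array for each genotype such likeness holds a single number per gene.

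The other Gla-domain proteins, which share with Gas6 and protein S the vitamin K-dependent domain, lay mostly in the opposite direction. Of 10 measured, 5 passed 2-fold downwards in the knockout, 0 passed it upwards and 5 lay between. The median log2 difference was -0.93, and 7 of 10 were below 0. Coagulation factor VII (F7) had signals of 827.2 (wild type) and 208.7 (knockout), 3.96-fold lower. Factor IX (F9) went from 403.9 to 83.4, below the floor, and was at least 3.59-fold lower. Protein C (Proc), whose activated form protein S assists, read 2404 and 748.1 and was 3.21-fold lower. Protein Z (Proz) was 2.15-fold lower and prothrombin (F2) 2.06-fold lower. Factor X (F10) did not pass 2-fold. It read 3803 and 2147, 1.77-fold lower, and 1 of its 3 measured probe sets lay above 0. The members higher in the knockout were transmembrane Gla proteins, Prrg2 (1.81-fold) and Prrg3 (1.30-fold), and the matrix Gla protein Mgp, whose knockout signal of 113.6 barely cleared the floor. A further transmembrane Gla protein, Prrg1, was 1.09-fold lower, with its measured probe sets in both directions. Prrg4 was on the floor on both arrays.

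Partners of protein S in anticoagulation lay in both directions. Of 11 measured genes of the protein S and protein C list, which also holds Proc, 4 passed 2-fold downwards, 1 passed it upwards and 6 lay between. The median was -0.60. Besides Proc, the lower genes were antithrombin (Serpinc1, 8716 and 2768, 3.15-fold lower), factor V (F5, 2.29-fold lower, and lower on its other probe set) and heparin cofactor II (Serpind1, 2.23-fold lower). Serpina5, the protein C inhibitor, was the higher gene. It went from 7.55 to 537.7 and was at least 4.78-fold higher. C4bp, which encodes a chain of the C4b-binding protein, a carrier of protein S in human plasma, was 1.52-fold lower, and Procr, the endothelial protein C receptor, and Thbd, which encodes thrombomodulin, the thrombin receptor needed to activate protein C, were on the floor in wild type and at least 1.39-fold and 1.61-fold higher.

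Of 5 measured genes of the vitamin K cycle, which makes Gla residues in both ligands, 0 were 2-fold apart. The median was -0.27, inside the range of the housekeeping genes given below, with 4 genes below 0 and 1 above. The gamma-carboxylase Ggcx went from 543.7 to 344.4 and was 1.58-fold lower on its brightest probe set and lower on its other probe set as well. The vitamin K epoxide reductase Vkorc1 was 1.21-fold lower and its paralogue Vkorc1l1 1.27-fold lower, whereas the quinone reductase Nqo1 was 1.28-fold higher.

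Among genes that act below the receptors or on them, 0 were 2-fold apart. Of 17 measured signalling adaptors, 13 were above 0, with a median of 0.27 (0.0175 when a gene is the median of its probe sets). The farthest were the phospholipases Plcg1 (270.2 and 537.4, 1.99-fold higher) and Plcg2 (1.95-fold), the kinase Src (1.89-fold) and the Rac exchange factor Vav1 (1.59-fold). Grb2 and Shc1, the adaptors of many receptor kinases, had log2 differences of -0.02 each. The proteases that shed Axl and Mertk from the surface, Adam10 (1.04-fold higher) and Adam17 (1.07-fold higher), and galectin-3 (Lgals3, 1335 and 1326), described as a further Mertk ligand, also read nearly alike. Their inhibitor Timp3 was 1.37-fold higher, and the median of this list was 0.08 over 4 genes. Of 8 measured genes of the interferon feedback through which TAM receptors dampen inflammation, 0 were 2-fold apart, with a median of 0.09. The farthest were the liver X receptor Nr1h3, an inducer of Mertk (1.53-fold higher), and the interferon receptor chain Ifnar2 (1.49-fold lower). Traf6 was 1.31-fold lower and Socs3 1.23-fold higher on their brightest probe sets, but for each the measured probe sets lay in both directions. Socs1, the best known product of this feedback, was on the floor on both arrays.

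Other receptors for phosphatidylserine and the engulfment machinery lay in both directions. Of 24 measured genes, 1 passed 2-fold upwards, 0 passed it downwards, and the median was 0.10. A total of 14 were above 0. The higher gene was Itgb3, the integrin beta chain that pairs with Itgav (1.41-fold higher) to bind Mfge8 (1.16-fold lower). Itgb3 read 110.4 and 280.1 and was at least 2.49-fold higher, but its other probe set only reached the floor in the knockout, at 113.0. Itgb3 was under 2-fold with a 60th percentile floor and with the median over probe sets. The phosphatidylserine receptor Timd4 of resident macrophages was 1.68-fold lower, from 583.7 to 347.3, and the lipid exporter Abca1 1.83-fold lower. Elmo1 and Dock1, which together activate Rac in engulfment, were 1.81-fold and 1.59-fold higher. Of 6 measured genes that govern exposure of phosphatidylserine on the cell surface, 1 was at least 2-fold higher, the flippase Atp11a (142.4 and 374.5, 2.63-fold), with a median of 0.36 for the list. Atp11a too was under 2-fold with the 60th percentile floor and with the median over probe sets. The scramblase Ano6 was 1.55-fold higher and Xkr8, which exposes phosphatidylserine on dying cells, 1.42-fold lower.

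**Figure D3:**
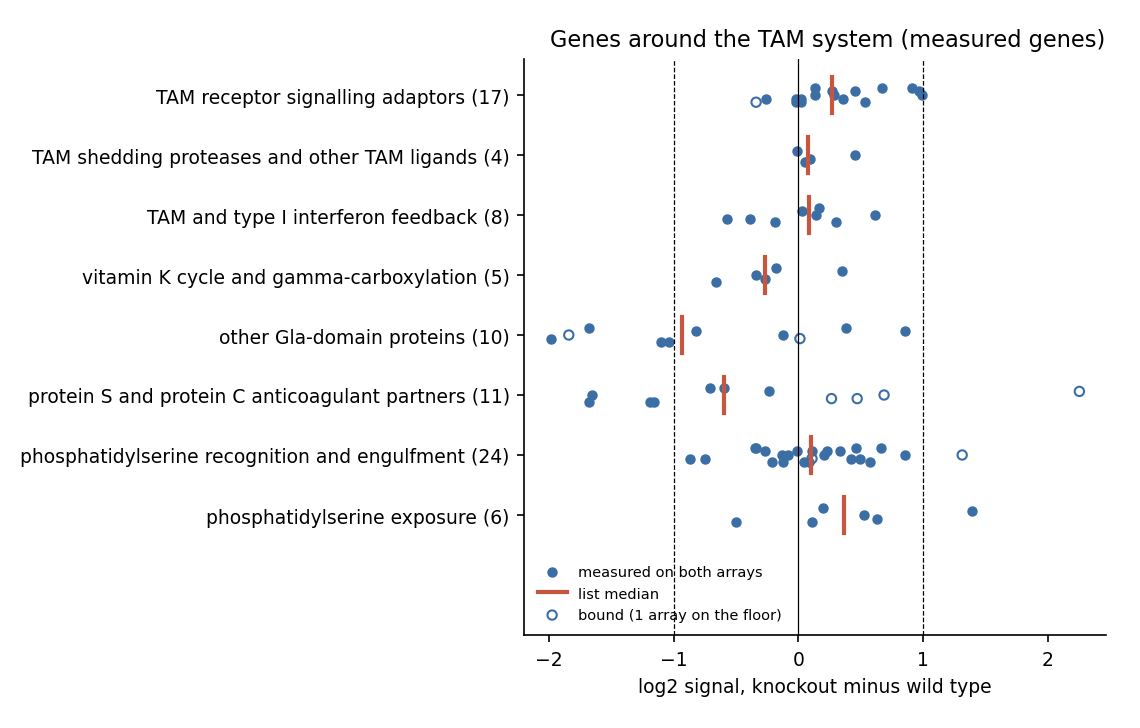
Log2 difference (knockout minus wild type) of each measured gene in 8 lists around the TAM system, the members themselves left out, with the number measured in parentheses, filled circles for genes measured on both arrays, open circles for bounds, a red bar at the list median and dashed lines at 2-fold. The other Gla-domain proteins and the protein S and protein C partners have medians of -0.93 and -0.60, and the other lists have medians between -0.27 and 0.36.

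Markers of cells that can hold TAM genes differed between the arrays, and their part in the values above was not tested. In whole-liver RNA, fewer cells of a type and less RNA per cell cannot be told apart. Of 20 stellate and mesenchymal markers, all measured on both arrays, 12 passed 2-fold upwards and 19 were above 0. The median was 1.22. Their summed signal was 21347 in wild type and 44323 in the knockout, 2.08-fold higher. The farthest of these markers, the collagen chain Col1a1, was 3.96-fold higher (322.7 and 1278), and Pdgfrb, the receptor of stellate cells and pericytes, was 3.22-fold higher. The others past 2-fold were the collagen chains Col6a1 (3.83-fold) and Col1a2 (2.84-fold), the cadherin Cdh11, the pericyte gene Rgs5, the transcription factors Hand2, Tcf21 and Lhx2, the proteoglycan Lum, the receptor Ngfr (2.18-fold) and the filament protein Vim (2.08-fold). The Gas6 difference was larger than that of each of the 20. Because Gas6 was taken up with its large difference known, this comparison says nothing about which cells hold it. The Axl and Mertk differences were below the median of these markers.

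Macrophage markers differed less. Of 17 measured, 1 passed 2-fold upwards and 14 were above 0, with a median of 0.33 and a summed signal 1.28-fold higher. Marco, a scavenger receptor, was 2.72-fold higher and the Kupffer cell lectin Clec4f 1.32-fold higher. The markers below 0 were Timd4 (1.68-fold lower), Mrc1 (1.215-fold lower) and Cd68 (1.09-fold lower). Cd163 and Vsig4 were on the floor on both arrays. The Mertk difference of 0.17 and the Axl difference of 0.51 both lie within the range of these 17 genes, from -0.75 to 1.44. Of 18 measured endothelial markers, 0 were 2-fold apart and 17 were above 0, with a median of 0.38. The farthest had log2 differences of 0.69 (Sox18), 0.60 (Ramp2), 0.57 (Plvap) and 0.56 (Vwf). Of 8 measured megakaryocyte markers, from cells that also hold Gas6 and protein S, all 8 were above 0, with a median of 0.45, and 1, Itgb3, passed 2-fold.

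Of 7 measured cholangiocyte markers, 4 passed 2-fold upwards and 0 downwards, with Krt19 (70.5 and 982.4) at least 8.72-fold higher Cldn7 at least 6.34-fold, Sox4 2.69-fold and Epcam at least 2.42-fold higher. Onecut1, Cftr and Muc1 were on the floor on both arrays. Krt19 also led the 8 measured mesothelial markers, of which 1 passed 2-fold upwards (median 0.43). Of 12 measured hepatocyte and hepatoblast markers, 4 passed 2-fold downwards and 10 were below 0, with a median of -0.45. The fetuin gene Ahsg went from 10437 to 788.4 and was 13.2-fold lower, Cyp2d10, a cytochrome P450, was 6.71-fold lower, the urea cycle enzyme Cps1 6.03-fold lower and the fibrinogen chain Fgb 2.94-fold lower. The liver label fits the defining markers, since Alb was bright on both arrays (32396 and 33186), as was the fetal product Afp (36369 and 35212). The log2 difference of Pros1, a product of hepatocytes and endothelium, was above that of each of these 12 markers, which ran from -3.73 to 0.34. It lay within the range of the endothelial markers, from -0.30 to 0.69, and of the megakaryocyte markers, from 0.10 to 1.31. It also lay within the ranges of the macrophage (-0.75 to 1.44) and the stellate and mesenchymal markers (-0.02 to 1.99). The same holds for the mesothelial (-0.16 to 3.12) and cholangiocyte markers (0.01 to 3.12), so the overlap singles out no list. Which cells the Pros1 signal came from was not tested. All 12 measured granulocyte markers were above 0, with a median of 1.09, and 7 passed 2-fold: Fcnb (3.49-fold), Chil3 (2.95-fold), S100a9 (2.65-fold), Ms4a3, Ngp, Camp and Mpo (2.03-fold). Of 8 measured erythroid markers 0 were 2-fold apart, with a median of -0.05. The farthest of them were Tfrc (1.49-fold lower), Gata1 (1.23-fold lower), Ank1 (1.17-fold higher) and Slc4a1 (1.14-fold higher). For Ank1 and for Slc4a1 the measured probe sets lay in both directions.

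**Figure D4:**
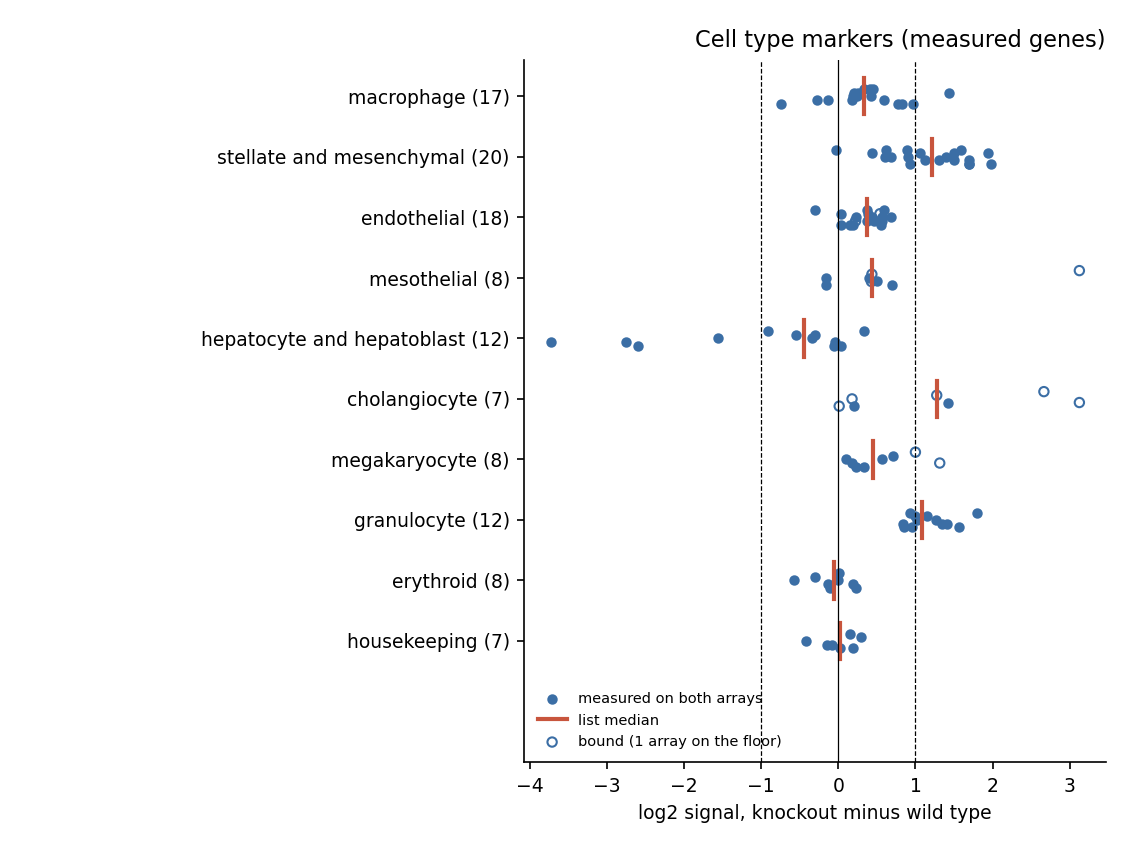
Log2 difference (knockout minus wild type) of each measured marker in 10 lists, with the number measured in parentheses, filled circles for genes measured on both arrays, open circles for bounds, a red bar at the list median and dashed lines at 2-fold. Stellate and mesenchymal, cholangiocyte and granulocyte markers have medians of 1.22, 1.28 and 1.09, and hepatocyte markers have a median of -0.45.

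Other differences between the arrays stand beside all of these values. Prox1 itself went from 340.3 to 221.8 on its brightest probe set and was lower on its other probe sets too. The position of these probe sets against the deleted part was not analysed here. Xist had signals of 11466 (wild type) and 365.7 (knockout), and the Y-linked gene Eif2s3y 0.87 and 1972. The Y-linked Kdm5d and Uty were also past 2-fold upwards. The labels give no sex, but these genes differ as between a female wild-type and a male knockout sample. Sex and genotype therefore cannot be told apart for any gene here, the members included. Housekeeping markers had a median of 0.02 over 7 genes, with a range from -0.42 (Tbp) to 0.30 (Rplp0). The Mertk difference lies inside the latter range, and those of Pros1 and Axl lie above it. With no replicate none of the member differences can be set against a spread between livers. Under 7 other ways of processing the arrays, Gas6 stayed past 2-fold, and the order of Gas6 above the other members held in each.

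**Figure D5:**
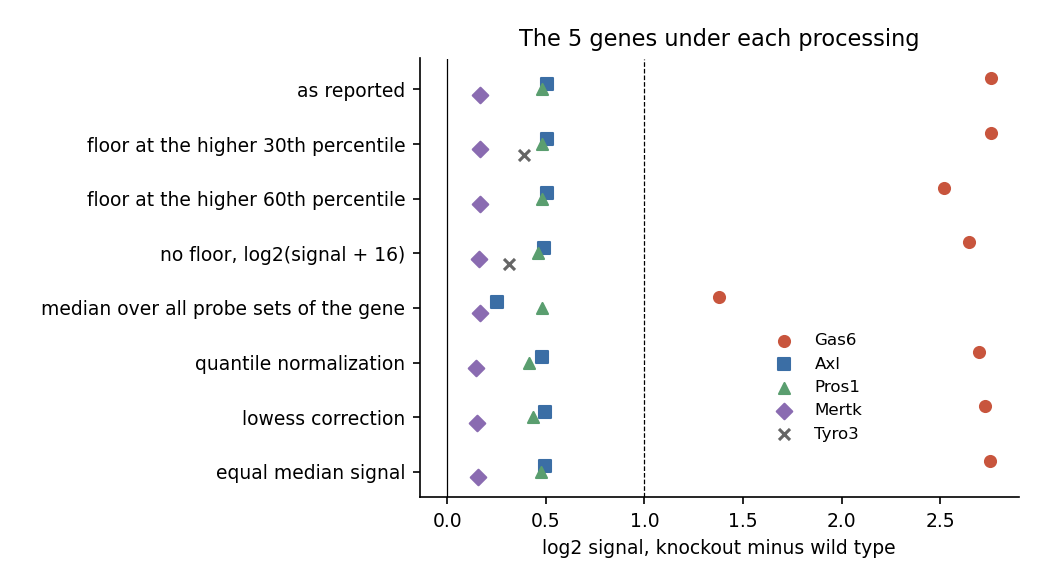
Log2 difference (knockout minus wild type) of each of the 5 genes under the reported processing and 7 alternatives, with 1 symbol per gene and a dashed line at 2-fold. Gas6 lies between 1.38 and 2.76 and stays past 2-fold in each, Pros1, Axl and Mertk lie between 0 and 2-fold, and Tyro3 has a value only with a lower floor or none.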

How the data were processed

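Each genotype had 1 single-colour Affymetrix array. Per the submitters' processing notes, the authors summarised each probe set with MAS5, and the deposited intensity is that signal on a linear scale. The labels' protocols give Trizol RNA and biotin-labelled one-cycle cRNA. The 2% trimmed mean was 500.0 on both arrays, so values were used as deposited. No source used here gives a version of MAS5. Detection calls were not used. MAS5 subtracts mismatch signal, so dim probe sets scatter. The number of arrays limits the precision.

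Control probe sets (64 of 45101) were left out. Names came from the platform annotation, with 34754 of 34958 single-gene probe sets matched to RefSeq GRCm38.p6 and 0 symbols changed. The annotation gave several genes for 932 probe sets, and 9160 were not listed; these name no gene. Signals were raised to the floor, the higher 50th percentile, before log2. The probe set of highest mean log2 signal stood for its gene. With 1 array on the floor a difference is a bound ("at least N-fold"). Calls were by size, at 2-fold, with no test. Counting was tested on simulated data, with planted changes well past 2-fold in genes of moderate to high signal. Planted changes near 2-fold or in dim probe sets were not simulated.

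The members and all lists were chosen with earlier results of these data known. Named genes were every member probe set, in each list the genes at least 2-fold apart or otherwise up to 4 with the largest differences, the genes closest in difference to each measured member, and neighbours on the chromosome at least 2-fold apart; others, including further list members, were chosen after their values were seen. Alternatives were other floors, no floor, the median over probe sets, quantile, lowess and median scaling, and other sizes. Python 3.11.15, numpy 2.4.6, pandas 2.3.3 and statsmodels 0.14.6 were used, with matplotlib 3.10.9 for plots.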

Additional observations from a re-analysis of the deposited data

How the results depend on the processing

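No paired analysis was possible because each genotype had 1 array, and for the same reason no replicate could be left out. A member's value was taken to have moved when it shifted by more than the robust SD of genes of like signal, a list median when it shifted by more than 0.1, and a count when it differed by more than 1.5 times. Of 214 values recomputed, 191 did not move by this measure and 23 did. Many of the 191 were list counts of 0 that stayed 0. A change of sign was counted as a reversal only for a value at least 2-fold from 0 as reported. Of the members and list medians only Gas6 met this, and it did not reverse. Gas6 was at least 2-fold higher in all 8 settings, from 2.60-fold to 6.77-fold. With the 60th percentile floor its wild-type signal lay on the floor, so the value there, 5.73-fold, is a bound. The lowest log2 difference of Gas6, 1.38, was the median over its probe sets, which averages in the probe set on the floor. Axl ranged from 0.25 to 0.51, Pros1 from 0.42 to 0.48 and Mertk from 0.14 to 0.17. Tyro3 had a value only at the 30th percentile floor (0.39) and without a floor (0.32).

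Genes at least 2-fold higher and lower numbered 789 and 414 with the 30th percentile floor and 1399 and 810 without a floor, against 373 and 243 as reported. There were 239 higher with the median over probe sets, 1125 and 594 at 1.5-fold, and 99 and 102 at 3-fold. The median of the other Gla-domain proteins was -0.82 with the 30th percentile floor, -1.04 with the 60th and -0.82 without a floor. That of the protein S and protein C partners was -0.93 with the 60th percentile floor, and that of the signalling adaptors was 0.0175 with the median over probe sets. At least 2-fold higher were 2 protein S and protein C partners with the 30th percentile floor and without a floor, 2 engulfment genes with the 30th percentile floor, and 2 interferon feedback genes without a floor. With the 60th percentile floor and with the median over probe sets, 0 engulfment genes and 0 exposure genes were at least 2-fold higher. The array's low signals limit what can be said of Tyro3 and of the dim Gas6 and Axl probe sets.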

Other observations

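Genes next to the members on their chromosomes were read in RefSeq order, 5 on each side with a probe set of their own. Gas6 lies on chromosome 8. Of its 10 neighbours, 6 were measured, 0 were 2-fold apart, and their log2 differences ran from -0.09 (Dcun1d2) to 0.61 (Champ1), against 2.76 for Gas6. The 7 measured neighbours of Pros1 on chromosome 16 ran from -0.17 to 0.88, the latter a bound for the receptor kinase Epha3, which was on the floor in wild type. Beside Axl, on chromosome 7, 5 of 10 neighbours were measured and 1 was 2-fold apart. This was Cyp2s1, a cytochrome P450, which went from 41.9 to 293.9 and was at least 2.61-fold higher. Hnrnpul1, on the other side of Axl, was 1.74-fold lower, from 4696 to 2702, and Tgfb1 was 1.29-fold higher. Mertk and Tyro3 both lie on chromosome 2, and of the 7 measured neighbours of each, 0 were 2-fold apart, with ranges from -0.42 to 0.63 and from -0.19 to 0.66.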
